A study of Oryza sativa Japonica Group with 3 samples.

Results

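The gibberellin pathway of the rice root tip was followed here through 6 genes: the biosynthetic enzymes GA20ox1 (OS03G0856700), GA20ox2 (OS01G0883800, also SD1) and GA3ox2 (OS01G0177400, also D18), the receptor GID1 (OS05G0407500), the DELLA repressor SLR1 (OS03G0707600), and the entry OS02G0580300, which carries the symbol GID2. They were chosen by name as core genes of the pathway, with earlier results of these data known. Their identifiers picked 6 of the 35664 gene identifiers in the deposited table. Gibberellins are diterpenoid hormones that promote elongation growth. In the last soluble steps of their synthesis, GA 20-oxidases make the inactive precursors and GA 3-oxidases convert these into bioactive hormone. The hormone binds GID1, which then holds SLR1, and the F-box protein GID2 brings ubiquitin ligase to SLR1 for its degradation, which lifts the repression of growth. Loss of GA20ox2 is the basis of semi-dwarf rice, and loss of GA3ox2 or GID1 gives severe dwarfs.

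RNA was sequenced from root tips, the terminal 1 cm of the root, of Nipponbare rice seedlings 7 days old, as a nuclear RNA pool and a poly(A) RNA pool. The nuclear pool came from line p35S:OsNTF2, in which nuclear envelopes carry a tag that accepts biotin, under the constitutive 35S promoter. Its nuclei were caught on streptavidin beads, ribosomal RNA was degraded, and the seedlings had grown on MS medium of strength 0.5 per the labels. The poly(A) pool came from line p35S:HF-FLAG-OsRPL18, which carries a tagged ribosomal protein under the same promoter. Its RNA was caught on oligo(dT) from a cell extract, and the seedlings had grown on MS medium of strength 1. The series' design text gives a single medium strength for both pools. RNA pool, plant line, RNA selection and labelled medium therefore changed together, and their effects cannot be told apart. No treatment was applied. Each pool is a single GEO sample with 4 columns, numbered 1 to 4. That these are biological replicates rests on the series' design text, and p-values measure only the spread between these libraries.

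Levels are given in RPKM, reads per gene scaled by the gene's length and the library's reads, so genes of different length can be set side by side. The nuclear libraries rested on 1075330 to 2293811 reads and the poly(A) libraries on 19454323 to 30010887, so the nuclear values carry the larger counting error. Pearson's r of log2(RPKM + 1) over the tested genes was 0.854 to 0.891 between nuclear libraries, 0.992 to 0.995 between poly(A) libraries and 0.619 to 0.691 between the pools. All 5 root marker genes had a mean of at least 1 RPKM in both pools, but QHB rested on 9 nuclear reads, with 0 in nuclear libraries 1 and 4. LSI1 and QHB had the lower mean in nuclear RNA, and LSI2, SHR1 and SCR1 the higher. The shoot meristem gene OSH1 was listed at 0 in all 8 libraries. The summed RPKM of 15 genes matched by words for photosynthesis proteins was 16.3 to 47.1 in nuclear libraries and 12.0 to 20.9 in poly(A) libraries. Its part in the results was not tested. One match, GHD7, is described as a heading date gene and was at 0 in all 8 libraries.

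The entry OS02G0580300 needs care before its values are read. The table gives it the symbol GID2 but describes it as similar to 14-3-3 protein 6. In the RefSeq annotation (assembly ASM3414082v1), 2 entries bear the name GID2, each of which overlaps 2 other entries, among them the 14-3-3 gene GF14E. Whether the reads of this row came from the F-box gene, the 14-3-3 gene or both therefore cannot be told. The row is called GID2/GF14E from here on. SLR1, GID1 and GA20ox2 had 1 RefSeq entry each, with 0 overlapping entries. GA20ox1 and GA3ox2 were not matched by name.

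Of the 6 genes, SLR1, GID1 and GA3ox2 were higher in nuclear RNA than in poly(A) RNA, GID2/GF14E was lower, and GA20ox1 and GA20ox2 did not pass the test. The test was limma on log2(RPKM + 1), with Benjamini-Hochberg adjustment over 26928 genes and a threshold of 0.05 on the adjusted p. Such calls were common in this comparison: 33.1% of the tested genes were higher in nuclear RNA and 30% were lower, against 3 and 1 of the 6 genes. The nuclear and poly(A) libraries did not overlap for 4 of the 6 genes, and for 61.1% of all tested genes. The median log2 difference, nuclear minus poly(A), was 0.92 over the 6 genes and 0.079 over all tested genes. In whole root tips, a difference in the number of cells that express a gene and a difference in RNA per cell cannot be told apart.

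**Figure D1:**
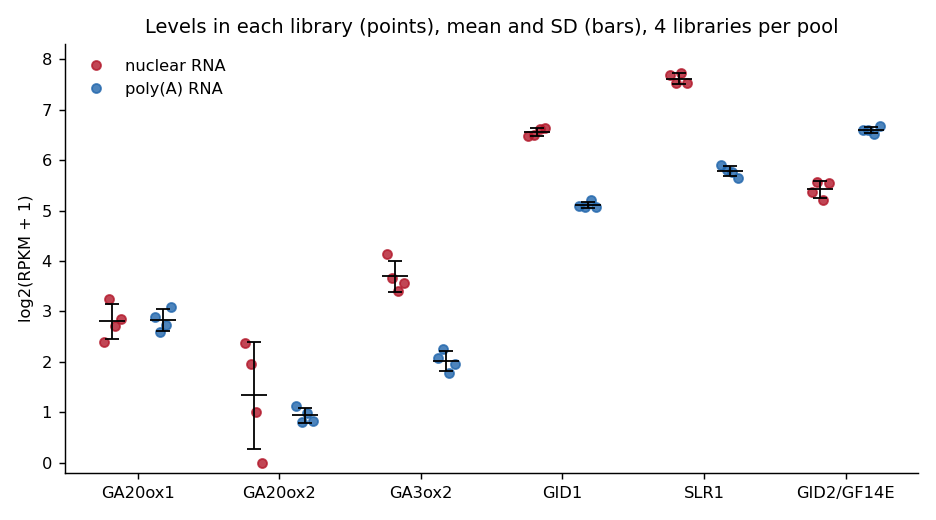
Level of each of the 6 genes as log2(RPKM + 1) in the 4 nuclear libraries (left of each pair) and the 4 poly(A) libraries (right), with the mean and SD as bars. SLR1, GID1 and GA3ox2 lie higher in nuclear RNA and GID2/GF14E lower, without overlap, while the pools overlap for GA20ox1 and GA20ox2, the second of which is at 0 in nuclear library 4.

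The biosynthetic enzymes were the least abundant of the 6 genes and differed among themselves. GA3ox2, the 3-oxidase that makes bioactive gibberellin, had 16.5, 11.8, 9.57 and 10.9 RPKM in nuclear libraries 1 to 4, against 3.23, 3.79, 2.44 and 2.87 RPKM in poly(A) libraries 1 to 4. Every nuclear library lay above every poly(A) library, and the lowest nuclear value was well clear of the highest poly(A) value. The means were 12.2 ± 3.04 RPKM in the nuclear pool and 3.08 ± 0.569 RPKM in poly(A) RNA (SD, n = 4 each). The log2 difference was 1.67 ± 0.19 (SE; 95% confidence interval 1.24 to 2.11), with an adjusted p of 8.66e-05 (limma). It rested on 83 nuclear reads and 360 poly(A) reads over a recovered length of 1113 nt. The ratio of pooled reads, corrected for depth, was 4.04 (exact 95% interval 3.15 to 5.15, counting error only). GA3ox2 thus stood higher in its difference than 89.5% of the tested genes.

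GA20ox1, a 20-oxidase acting one step earlier, had 4.26, 8.45, 5.59 and 6.22 RPKM in nuclear libraries 1 to 4, against 6.39, 5.05, 5.64 and 7.55 RPKM in poly(A) libraries 1 to 4. The pools overlapped, and the nuclear libraries held both the lowest and the highest value. The means were 6.13 ± 1.75 RPKM in the nuclear pool and 6.16 ± 1.08 RPKM in poly(A) RNA (SD, n = 4 each). The log2 difference was -0.03 ± 0.20 (SE; 95% confidence interval -0.49 to 0.44; limma adjusted p = 0.919), and its sign turned under another scaling of the libraries (0.20 after rescaling to an equal RPKM sum). An interval of this width does not show that the pools were equal. With 59 nuclear reads and 1001 poly(A) reads, the pooled read ratio was 1.03 (exact 95% interval 0.781 to 1.35).

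GA20ox2, the semi-dwarf gene, was at the edge of detection in nuclear RNA. It had 4.22, 2.88, 1.01 and 0 RPKM in nuclear libraries 1 to 4, from 9, 10, 2 and 0 reads. In poly(A) libraries 1 to 4 it had 1.19, 0.748, 0.992 and 0.781 RPKM, from 54, 22, 43 and 34 reads. The nuclear values spanned the poly(A) values on both sides, and the 0 in nuclear library 4 allows up to 1.85 RPKM, the level of 3 reads there. The means were 2.03 ± 1.89 RPKM in the nuclear pool and 0.928 ± 0.206 RPKM in poly(A) RNA (SD, n = 4 each), and the log2 difference was 0.40 ± 0.46 (SE; 95% confidence interval -0.67 to 1.46; limma adjusted p = 0.479). GA20ox2 was tested because its nuclear mean reached 1 RPKM, which its poly(A) mean did not, and such a filter favours a difference toward nuclear RNA. Without nuclear library 4, the one with 0 reads, the difference was 0.84 with an adjusted p of 0.0428 (limma). Over all 17 alternatives that kept the gene the adjusted p (limma) ran from 0.0428 to 0.938. The pooled read ratio was 2.41 (exact 95% interval 1.45 to 3.81), an interval that covers counting error but not the spread between libraries.

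GID1, the soluble gibberellin receptor, had 87.7, 89.8, 97.0 and 98.8 RPKM in nuclear libraries 1 to 4, against 33.2, 32.6, 35.7 and 32.8 RPKM in poly(A) libraries 1 to 4. The libraries of each pool lay close together and the pools were far apart. The means were 93.3 ± 5.41 RPKM in the nuclear pool and 33.6 ± 1.45 RPKM in poly(A) RNA (SD, n = 4 each). The log2 difference was 1.45 ± 0.11 (SE; 95% confidence interval 1.19 to 1.71), with an adjusted p of 1.14e-05 (limma), higher than that of 86% of the tested genes. GID1 was covered by 1215 nuclear reads and 7760 poly(A) reads over 2156 nt, with a pooled read ratio of 2.75 (exact 95% interval 2.58 to 2.92).

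SLR1, the DELLA protein that represses growth until gibberellin removes it, was the most abundant of the 6 genes in nuclear RNA. It had 205.2, 182.2, 211.3 and 183.4 RPKM in nuclear libraries 1 to 4, against 58.7, 54.8, 53.2 and 49.3 RPKM in poly(A) libraries 1 to 4. All nuclear libraries were far above all poly(A) libraries. The means were 195.5 ± 14.9 RPKM in the nuclear pool and 54.0 ± 3.90 RPKM in poly(A) RNA (SD, n = 4 each). The log2 difference of 1.84 ± 0.12 (SE; 95% confidence interval 1.55 to 2.12) had an adjusted p of 5.06e-06 (limma) and lay above that of 91.5% of the tested genes. With 2759 nuclear reads and 13469 poly(A) reads over 2333 nt, the pooled read ratio was 3.59 (exact 95% interval 3.45 to 3.74).

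GID2/GF14E, the row with the symbol of the F-box gene and the description of a 14-3-3 protein, was the only one of the 6 called lower in nuclear RNA. It had 40.1, 46.4, 36.2 and 45.6 RPKM in nuclear libraries 1 to 4, against 95.3, 95.9, 90.9 and 100.8 RPKM in poly(A) libraries 1 to 4. No nuclear library came near the lowest poly(A) library. The means were 42.1 ± 4.84 RPKM in the nuclear pool and 95.7 ± 4.07 RPKM in poly(A) RNA (SD, n = 4 each). The log2 difference was -1.17 ± 0.13 (SE; 95% confidence interval -1.47 to -0.88), with an adjusted p of 7.46e-05 (limma), and 18.6% of the tested genes had a lower one. The row held 683 nuclear reads and 26916 poly(A) reads over 2630 nt, with a pooled read ratio of 0.445 (exact 95% interval 0.412 to 0.480).

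**Figure D2:**
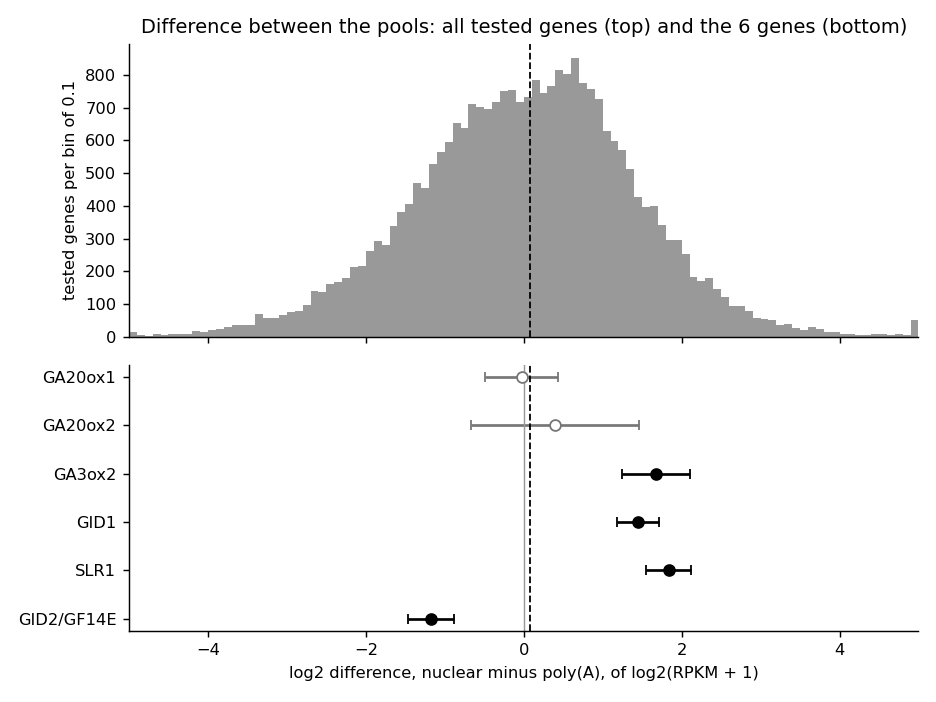
Top, number of tested genes by log2 difference, nuclear minus poly(A), in bins of 0.1, with values beyond the axis gathered in the end bins and the median of all tested genes (0.079) as a dashed line. Bottom, the 6 genes with 95% confidence intervals, filled where the adjusted p (limma) was under 0.05. GA20ox1 (-0.03) and GA20ox2 (0.40) span 0, and SLR1 (1.84) is the highest on this scale. With a pseudocount of 0.1, GA3ox2 (1.93) lies above SLR1 (1.85).

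The order of the levels differed between the pools. In nuclear RNA it ran SLR1, GID1, GID2/GF14E, GA3ox2, GA20ox1 and GA20ox2, and in poly(A) RNA it ran GID2/GF14E, SLR1, GID1, GA20ox1, GA3ox2 and GA20ox2. No neighbours in either order overlapped across their 4 libraries, but some gaps were small. The lowest GA20ox1 value in nuclear RNA was 4.26 RPKM and the highest GA20ox2 value there 4.22 RPKM, each from 9 reads in the same library. The lowest GA3ox2 value in nuclear RNA was 9.57 RPKM, next to a highest GA20ox1 value of 8.45 RPKM.

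Pairs of the 6 genes were also compared within each library, 6 pairs in all. The test was an exact two-sided permutation over the 8 libraries on differences of log2(RPKM + 1), for which 0.0286 is the smallest p possible. For genes with few RPKM these differences depend on the pseudocount and are not those of the plain ratios. SLR1 exceeded GID1 by 2.34, 2.03, 2.18 and 1.86 times in nuclear libraries 1 to 4, against 1.77, 1.68, 1.49 and 1.50 times in poly(A) libraries 1 to 4. The repressor was thus the more abundant of the pair in every library, and more so in nuclear RNA, by 0.39 on the log2(RPKM + 1) scale (exact permutation p = 0.0286, adjusted over 6 pairs 0.0343). GA20ox1 stood at 0.258, 0.719, 0.585 and 0.572 times GA3ox2 in nuclear libraries 1 to 4, against 1.98, 1.33, 2.31 and 2.63 times in poly(A) libraries 1 to 4. The 3-oxidase was therefore above the 20-oxidase in all nuclear libraries and below it in all poly(A) libraries, a difference of -1.70 on the log2(RPKM + 1) scale (exact permutation p = 0.0286, adjusted 0.0343) and of -1.97 with a pseudocount of 0.1 (exact permutation p, adjusted, 0.0429).

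Against GID2/GF14E, both SLR1 and GID1 changed sides. SLR1 over GID2/GF14E was 3.93 to 5.84 in nuclear libraries and 0.489 to 0.616 in poly(A) libraries, and GID1 over GID2/GF14E was 1.93 to 2.68 in nuclear libraries and 0.325 to 0.393 in poly(A) libraries. On the log2(RPKM + 1) scale the differences were 3.01 and 2.62 (exact permutation p = 0.0286 each, adjusted 0.0343). GA20ox2 over GA3ox2 differed by -1.28 on the log2(RPKM + 1) scale (exact permutation p = 0.0286, adjusted 0.0343). Its plain ratios overlapped, however, at 0 to 0.255 in nuclear libraries and 0.198 to 0.406 in poly(A) libraries, and with a pseudocount of 0.1 the adjusted exact permutation p was 0.137. GA20ox1 over GA20ox2 overlapped between the pools (difference -0.42, exact permutation p = 0.6). With the reads of every library thinned to the smallest library, the 5 pairs that passed had adjusted exact permutation p-values of 0.0571 to 0.0686, with differences of the same sign.

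**Figure D3:**
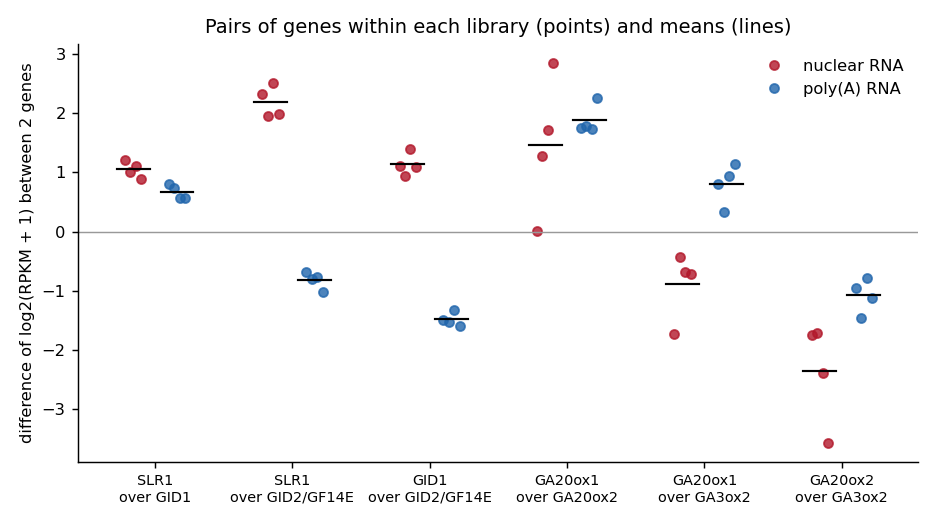
Difference of log2(RPKM + 1) between the genes of each of 6 pairs within the 4 nuclear libraries (left of each pair of columns) and the 4 poly(A) libraries (right), with means as lines. GA20ox1 over GA3ox2 is below 0 in all nuclear libraries and above 0 in all poly(A) libraries, and the pools overlap for GA20ox1 over GA20ox2.

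The other genes of the pathway were taken from the table's own symbols and descriptions. Of 84 such genes, 51 had a mean of at least 1 RPKM in either pool and were tested: 20 were higher in nuclear RNA, 14 were lower and 17 were not called, with a median log2 difference of 0.20 beside 0.079 for all tested genes. The match by words also took in genes that describe other proteins. Words in the description marked 8 of them, such as resistance proteins named RGA and ribosomal protein L9. Without these 8, 18 of 45 were higher and 12 were lower. These 45 still hold entries with a looser tie to the pathway. Examples are KS8, DLT, and genes described as similar to GAMYB-binding proteins, such as OS02G0700600, OS03G0847600 and SRWD3. The filter favours a difference toward the pool in which a gene alone reached 1 RPKM, which was nuclear RNA for 6 of the 51 and poly(A) RNA for 4. Of the 41 that reached it in both pools, 16 were higher and 12 were lower. Over all tested genes, 33.1% were higher and 30% were lower, the shares beside which the counts by role below are to be read.

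The entries annotated as kaurene-type synthases and oxidases or as KAO, the steps before the 20-oxidases, gave 0 of 6 tested genes higher in nuclear RNA and 2 lower. One of them, KS8, is described as similar to a stemarene synthase, an enzyme of another diterpene. Both genes called lower, KO1 and KAO, reached 1 RPKM in poly(A) RNA only, and of the 3 genes that reached it in both pools 0 were called in either direction. D35, the kaurene oxidase with the highest level, had 14.6 ± 7.21 RPKM in the nuclear pool and 21.9 ± 0.724 RPKM in poly(A) RNA and was not called (limma adjusted p = 0.0768). KO1, described as another kaurene oxidase, fell to 0.299 ± 0.231 RPKM in nuclear RNA, against 2.52 ± 0.417 RPKM in poly(A) RNA (log2 difference -1.45, limma adjusted p = 0.000115). KO1 rested on 3 nuclear reads and 460 poly(A) reads. KAO, which turns kaurenoic acid into the first gibberellin, had 0.546 ± 0.695 RPKM in the nuclear pool and 1.62 ± 0.397 RPKM in poly(A) RNA (log2 difference -0.85, limma adjusted p = 0.0368), with overlapping libraries. KAO rested on 5 nuclear reads, with 0 in nuclear libraries 2 and 3, and 326 poly(A) reads. CPS1, which makes the copalyl precursor, was below the level tested, with 11 nuclear reads, all in library 2, and 143 poly(A) reads.

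Of the other 20-oxidases, GA20OX7 was higher in nuclear RNA, at 9.80 ± 2.65 RPKM, against 5.64 ± 0.804 RPKM in poly(A) RNA (log2 difference 0.67, limma adjusted p = 0.021), although the libraries overlapped. GA20OX3 averaged 1.15 ± 1.52 RPKM in the nuclear pool and 0.875 ± 0.122 RPKM in poly(A) RNA and was not called. GA3OX1, the other named 3-oxidase, had 0 nuclear reads and 3 poly(A) reads over all libraries, so GA3ox2 was the only 3-oxidase that could be tested in these root tips.

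The enzymes that inactivate gibberellin gave 3 genes higher in nuclear RNA and 0 lower among 6 tested. EUI1, a cytochrome P450 that deactivates gibberellin, had 20.3 ± 6.62 RPKM in the nuclear pool and 3.08 ± 0.364 RPKM in poly(A) RNA, a log2 difference of 2.32 ± 0.25 (SE; limma adjusted p = 6.59e-05). Of 5 tested GA 2-oxidases, which hydroxylate gibberellin to inactive forms, 2 were higher. GA2OX3 had 5.55 ± 1.76 RPKM in the nuclear pool and 2.097 ± 0.607 RPKM in poly(A) RNA (log2 difference 1.06, limma adjusted p = 0.0051). GA2OX5 had 4.70 ± 2.59 RPKM in the nuclear pool and 1.82 ± 0.171 RPKM in poly(A) RNA (log2 difference 0.90, limma adjusted p = 0.0334). The best covered of the others, OS05G0158700, described as similar to OsGA2ox1, had 3.01 ± 0.545 RPKM in the nuclear pool and 3.28 ± 0.680 RPKM in poly(A) RNA and was not called.

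Of the genes annotated as similar to the receptor, 3 were tested and called higher in nuclear RNA, but 2 of them reached 1 RPKM in nuclear RNA only. OS06G0214850, described as similar to GID1L2, reached it in both pools, at 131.6 ± 21.7 RPKM in the nuclear pool and 68.9 ± 1.195 RPKM in poly(A) RNA (log2 difference 0.91, limma adjusted p = 0.000658). A receptor function of these relatives is not given by the table beyond that description. Of 6 tested DELLA-like entries, 4 were higher and 0 were lower, but 4 of the 6 describe resistance proteins named RGA and 1 reached 1 RPKM in nuclear RNA only. SLRL1, a GRAS protein related to SLR1, had 22.3 ± 5.71 RPKM in the nuclear pool and 5.17 ± 0.523 RPKM in poly(A) RNA (log2 difference 1.89, limma adjusted p = 4.53e-05). DLT, a GRAS protein annotated to brassinosteroid signalling, had 45.5 ± 3.85 RPKM in the nuclear pool and 21.9 ± 2.94 RPKM in poly(A) RNA (log2 difference 1.03, limma adjusted p = 0.000259). SLRL2 had 0 nuclear reads and 1 poly(A) read over all libraries.

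The entries matched as other signalling genes went both ways: of 12 tested, 6 were higher in nuclear RNA and 4 were lower. Of the 11 that reached 1 RPKM in both pools, 5 were higher and 4 were lower. Apart from SPY, the lower ones (OS02G0700600, OS03G0847600 and SRWD3) are described as similar to GAMYB-binding proteins. So are SKIPA, OS06G0507300, OS06G0507400 and OS10G0408700 among the higher ones. A role of these genes in gibberellin signalling is not given beyond that description. GAMYB, the MYB factor that activates alpha-amylase genes under gibberellin, had 5.08 ± 1.79 RPKM in the nuclear pool and 1.93 ± 0.320 RPKM in poly(A) RNA (log2 difference 1.02, limma adjusted p = 0.00251). SPY, the O-linked sugar transferase annotated as a negative regulator of the pathway, was lower in nuclear RNA, at 15.9 ± 1.56 RPKM, against 30.5 ± 2.37 RPKM in poly(A) RNA (log2 difference -0.90, limma adjusted p = 0.000341). Negative regulators of the pathway thus lay on both sides, SLR1 higher and SPY lower. OS10G0408700, described as a GAMYB-binding protein, was the most abundant of the group in nuclear RNA but not in poly(A) RNA, at 91.0 ± 5.58 RPKM in the nuclear pool and 24.2 ± 2.19 RPKM in poly(A) RNA (log2 difference 1.87, limma adjusted p = 4.81e-06).

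Of the genes named for their response to gibberellin, 1 of 13 tested was higher in nuclear RNA and 7 were lower, with a median log2 difference of -0.55, and 2 of those 7 encode ribosomal protein L9. SAP11, a zinc finger protein induced by gibberellin, had 97.7 ± 26.6 RPKM in the nuclear pool and 131.9 ± 10.2 RPKM in poly(A) RNA and was not called (limma adjusted p = 0.075). The lowest differences of the group were those of OS01G0571100 and OS09G0414900. OS01G0571100, described as similar to gibberellin responsive1, had 10.0 ± 3.97 RPKM in the nuclear pool and 73.8 ± 4.15 RPKM in poly(A) RNA (log2 difference -2.82, limma adjusted p = 1.16e-05). OS09G0414900, a GASA5-like gene, had 4.29 ± 4.49 RPKM in the nuclear pool and 30.4 ± 2.28 RPKM in poly(A) RNA (log2 difference -3.12, limma adjusted p = 0.0037). Its nuclear value rested on 21 reads, 15 of them in nuclear library 2. The exception was CIGR2, a GRAS protein named for its response to chitin and gibberellin, at 21.9 ± 3.66 RPKM in the nuclear pool and 11.2 ± 0.436 RPKM in poly(A) RNA (log2 difference 0.90, limma adjusted p = 0.00073). OS06G0266800, a gibberellin-stimulated protein with 119.6 ± 24.4 RPKM in the nuclear pool and 102.8 ± 6.89 RPKM in poly(A) RNA, was not called (limma adjusted p = 0.334). Of 3 further genes whose annotation mentions gibberellin, 2 were higher and 1 was lower. ERF77, annotated to the balance of abscisic acid and gibberellin, had 67.7 ± 14.3 RPKM in the nuclear pool and 18.3 ± 3.55 RPKM in poly(A) RNA (log2 difference 1.83, limma adjusted p = 7.07e-05). SAP4, a zinc finger protein, had 52.3 ± 10.2 RPKM in the nuclear pool and 126.1 ± 4.09 RPKM in poly(A) RNA (log2 difference -1.27, limma adjusted p = 0.000184).

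**Figure D4:**
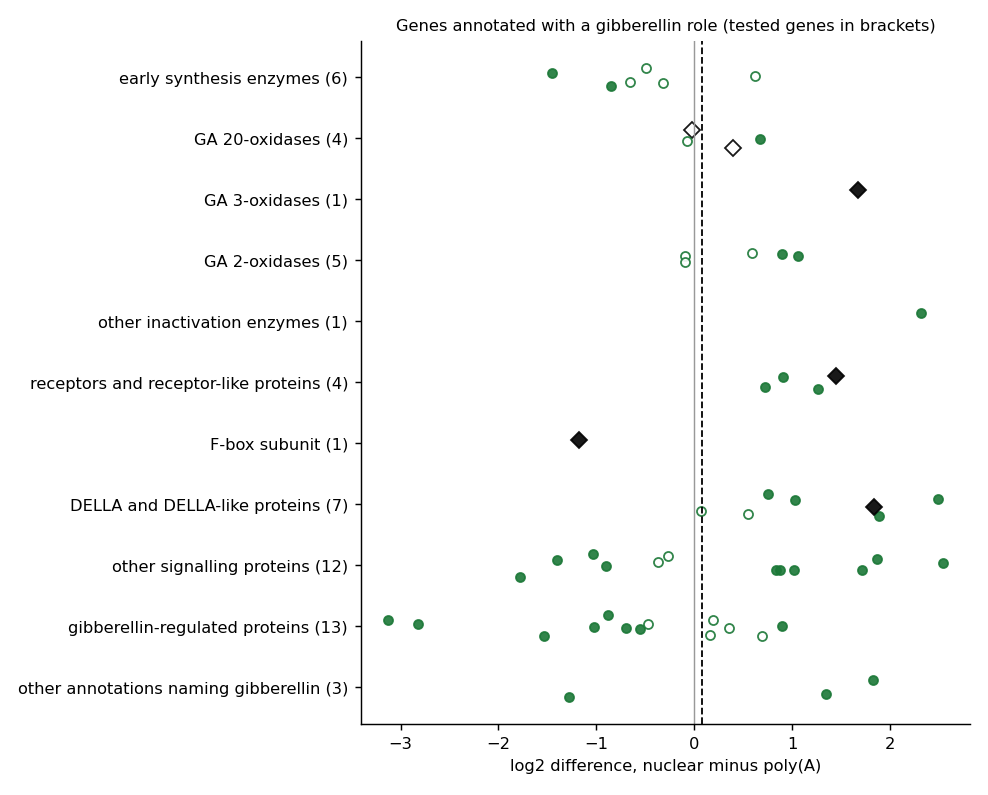
Log2 difference, nuclear minus poly(A), of every tested gene annotated with a gibberellin role, by role, with the 6 genes of the core pathway as black diamonds and the others as green circles, filled where the adjusted p was under 0.05. The dashed line is the median of all tested genes (0.079). Receptor-like genes lie to its right, 2 of them having reached 1 RPKM in nuclear RNA only. Of 13 gibberellin-regulated genes 7 are called lower, beside 30% of all tested genes.

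Genes of related protein families, chosen as context after the values of the 6 genes were known, were matched by words in the annotation, which leaves out some family members. SLRL1, CIGR1, CIGR2 and SCR1, for example, were not matched as GRAS proteins, nor were OS05G0158700 and OS05G0208550 as oxygenases, so no rank within these families is given. The shares of all tested genes to set beside the family counts were 33.1% higher and 30% lower. Of 27 tested genes matched as GRAS proteins, the family of SLR1, 22 were higher in nuclear RNA and 2 were lower, with a median log2 difference of 1.34. Of the 19 that reached 1 RPKM in both pools, 15 were higher and 2 were lower. With SLR1 left out, 21 of 26 tested genes were higher and 2 were lower, with a median of 1.325. Of 8 tested 14-3-3 entries, 0 were higher and 7 were lower, with a median of -1.39. GF14F had 97.9 ± 22.0 RPKM in the nuclear pool and 588.3 ± 13.3 RPKM in poly(A) RNA (log2 difference -2.60, limma adjusted p = 4.85e-06), and GF14G, at 10.1 ± 4.28 RPKM in the nuclear pool and 9.86 ± 0.712 RPKM in poly(A) RNA, was the entry not called. GID2/GF14E, itself among these 8, had a log2 difference of -1.17, beside a median of -1.50 for the other 7, of which 6 were lower. How much of its fall belongs to the F-box gene was not tested. Of 39 tested genes matched as oxygenases of the 2OG-Fe(II) family, to which the GA oxidases belong, 8 were higher and 13 were lower, with a median of -0.20. Of the 31 that reached 1 RPKM in both pools, 8 were higher and 10 were lower. With GA20ox1, GA20ox2 and GA3ox2 left out, 7 of 36 tested genes were higher and 13 were lower, with a median of -0.30.

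**Figure D5:**
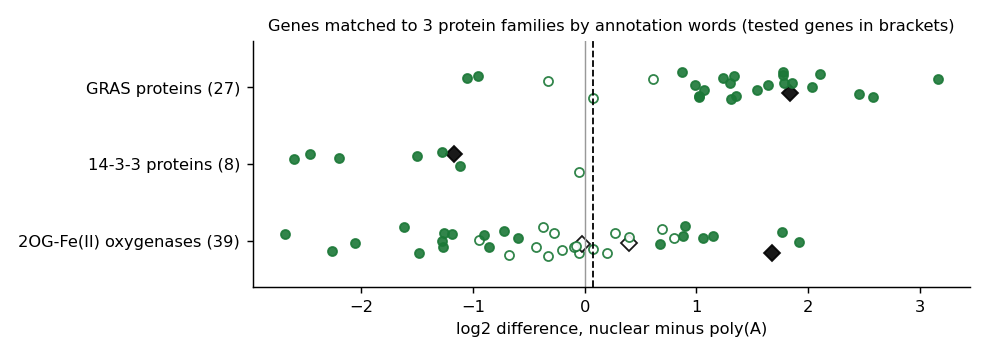
Log2 difference, nuclear minus poly(A), of the tested genes matched by annotation words as GRAS proteins, 14-3-3 proteins and 2OG-Fe(II) oxygenases, with the genes of the core pathway as black diamonds and the others as green circles, filled where the adjusted p was under 0.05. SLR1 lies among the GRAS genes, 22 of 27 of which are higher in nuclear RNA. Of these 27, 8 reached 1 RPKM in nuclear RNA only. GID2/GF14E lies among the 14-3-3 genes, 7 of 8 of which are lower, and GA3ox2 (1.67) toward the right of the oxygenases. Of all tested genes, 33.1% are higher and 30% are lower.

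The genes with the pattern nearest to each member were found by the root mean square distance of log2(RPKM + 1) over the 8 libraries. The nearest to SLR1 was OS03G0725800, described as a helix-loop-helix protein, with means of 199.1 RPKM in the nuclear pool and 52.5 RPKM in poly(A) RNA (distance 0.081). The nearest to GID1 was OS12G0548200, a hypothetical gene with 90.3 RPKM in nuclear and 33.9 RPKM in poly(A) libraries (distance 0.11). GID2/GF14E lay nearest to OS08G0154700, an LSm2 domain protein with 41.7 RPKM in the nuclear pool and 92.4 RPKM in poly(A) RNA (distance 0.095), and next to the expansin EXPA1, with 40.6 RPKM in nuclear and 101.7 RPKM in poly(A) libraries (distance 0.11). For the enzymes, GA3ox2 lay nearest to the NB-ARC gene OS01G0335700 (nuclear mean 10.97 RPKM, poly(A) mean 3.23 RPKM, distance 0.15) and GA20ox1 to OS11G0525800, described as similar to a retrotransposon protein (nuclear mean 5.91 RPKM, poly(A) mean 6.35 RPKM, distance 0.16). GA20ox2 lay nearest to OS01G0139600, described as similar to a lipid phosphate phosphatase (nuclear mean 1.88 RPKM, poly(A) mean 1.01 RPKM, distance 0.096). The distance joins level and difference, and none of these nearest genes is on the list of gibberellin genes.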

How the data were processed

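The deposited table holds RPKM, computed by the authors for 8 libraries. The submitters' processing notes name the IRGSP-1.0 genome and, as tools, TopHat2 2.1.1, CASAVA 1.8 and FastQC. How reads were counted, with or without strand, and on which annotation is not given in the sources used here, so reads of overlapping or antisense genes cannot be told apart. Of 35664 gene identifiers, 29 occurred on several lines with equal values and were used once. RPKM of each gene were whole multiples of 1 read (33191 of 33191 genes above 0, within 0.01 of a read), which gave the reads, depths and gene lengths quoted. Reads in PCR libraries are not independent molecules, and intervals and limits cover counting error only.

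Differences were tested with limma 3.58.1 (R 4.3.3; lmFit and then eBayes) on log2(RPKM + 1), for the 26928 genes whose mean reached 1 RPKM in at least 1 pool, without a block, two-sided, with Benjamini-Hochberg adjustment. This scale understates the change of low genes. All 6 genes passed the filter, GA20ox2 through its nuclear mean alone. The 6 genes, the gene lists and the alternatives were chosen with earlier results of these data known. The text names the 6 genes, the tested pathway genes with the highest level in each role, and the nearest genes of each of the 6. The ribosomal protein L9 entries, which had the highest levels among the gibberellin-regulated genes, were passed over. Every other pathway or 14-3-3 gene was named after its values were seen. RefSeq (ASM3414082v1) was used for names and overlaps only. Nuclei of the shoot base were not analysed here.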

Additional observations from a re-analysis of the deposited data

How the results depend on the processing

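SLR1, GID1, GA3ox2 and GID2/GF14E kept their direction and an adjusted p under 0.05 (limma) in all 18 alternatives run. These changed the pseudocount, the filter, the scaling, the length trend, voom on recovered reads, thinning of reads, the replicate block and the libraries left out. Their log2 differences ran from 1.64 to 2.36, 1.29 to 1.72, 1.49 to 2.03 and -1.46 to -0.92. Rescaling to an equal RPKM sum moved the median of all tested genes to 0.30 and median centring moved it to -0.078, against 0.079 as reported, and the share of calls that were higher was 61.5%, 45.9% and 52.5%. GA20ox1 was never called: it was 0.20 after rescaling, 0.0445 with voom, 0.0145 after thinning, and -0.17 to 0.11 with 1 library left out (above 0 without poly(A) library 4 at 0.06, nuclear library 1 at 0.11 and nuclear library 3 at 0.0013). GA20ox2 was 0.0464 to 0.84 with 1 library left out and was called without nuclear library 4 alone; the filter at 5 RPKM removed it. After thinning, the pair differences were 0.40, 2.97, 2.57, -1.67 and -1.32 (SLR1 over GID1, SLR1 over GID2/GF14E, GID1 over GID2/GF14E, GA20ox1 over GA3ox2, GA20ox2 over GA3ox2) and none passed; with a pseudocount of 0.1 the last was -1.83 and did not pass. After thinning, the adjusted exact permutation p was 0.0571 for SLR1 over GID2/GF14E, GID1 over GID2/GF14E and GA20ox1 over GA3ox2. It was 0.0686 for SLR1 over GID1 and GA20ox2 over GA3ox2. Since 0.0286 is the smallest p possible for a pair, each adjusted p depends on how many of the 6 pairs reach it. Beyond this, the cause was not tested. GA20ox1 over GA20ox2, not called, was 0.06 without nuclear library 1. Pairs with a library left out, or blocked, carry values and no test. edgeR and DESeq2, planned on recovered reads, were not run, since the deposited unit is RPKM.

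Same-numbered libraries of the pools had correlations of their deviations of -0.0476 to 0.00922, which gave no sign that the numbers pair them. The counting error of the nuclear libraries could hide a shared effect, so pairing is not excluded. With a replicate block no call among the 6 genes changed, and SLR1 stayed at 1.84, GID1 at 1.45, GA3ox2 at 1.67, GID2/GF14E at -1.17, GA20ox2 at 0.40 (limma adjusted p = 0.409) and GA20ox1 at -0.03 (limma adjusted p = 0.93). Depth limits the enzymes most: GA20ox2 had 21 and GA20ox1 59 nuclear reads in all.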
